A study of Mus musculus with 6 samples.

Results

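The EGF family is described here through 6 of its ligands (Hbegf, Ereg, Btc, Tgfa, Egf and Nrg1) and the 4 ERBB receptors (Egfr, Erbb2, Erbb3 and Erbb4). Every probe set to which the array's annotation gives 1 of these 10 gene symbols was taken, which made 21 of the 34945 probe sets that carry a single symbol, and 10 of 18193 genes. Total RNA of uterine epithelium from female mice in early pregnancy was measured on 6 Affymetrix 3′ expression arrays, 2 per group. The first group was wild-type (WT) on day 1 of pregnancy, the day of the vaginal plug (samples 302 and 303), the second was WT on day 4 (277 and 284), and the third was Sox17GFP/+ on day 4 (253 and 281), heterozygous mutants with 1 Sox17 allele changed to carry GFP. Strain and age are not given in the sources used here, and there was no heterozygous group on day 1. The epithelium was freed from uterine pieces with pancreatin and dispase, so it is a preparation and not a sorted cell type. Nothing states that the 2 samples of a group came from separate animals, so p-values throughout measure only the spread between these samples.

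EGF family ligands are made as membrane proteins and are released by cleavage, and each binds 1 or more receptor tyrosine kinases of the ERBB family, which then pair. EGFR binds Tgfa, Hbegf, Btc, Ereg and Egf, ERBB3 and ERBB4 bind neuregulins, ERBB2 has no known ligand of its own and acts as a partner, and ERBB3 has little kinase activity of its own. In the mouse uterus the family is known above all from implantation, when luminal epithelium next to the blastocyst expresses Hbegf and the embryo carries the receptors. The gene mutated here, Sox17, encodes a SOX family transcription factor found in that epithelium.

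The signals are on the linear scale the authors deposited, with the same trimmed mean of 500 on every array, and the number of arrays limits the precision of every value. WT day 4 array 277 stood apart in the dim range, where 27.0% of its probe sets read below 50 while the other 5 had 41.6% to 44.6% there. Among the EGF family probe sets the median absolute log2 difference within a pair was 0.67 in WT on day 4, 0.27 in WT on day 1 and 0.26 in the heterozygotes. Sox17 itself read 2394 and 2478 on day 1, 22781 and 18473 in WT on day 4 and 13304 and 13061 in heterozygotes at 1 probe set, and 7738 and 8671, 34794 and 35060, and 30189 and 28810 at the other; whether they also read the GFP allele is unknown. Cell type markers were summed at the brightest probe set of each gene. The 9 epithelial markers (such as Cdh1, Epcam and Krt8) summed to between 149566 and 170154 on all arrays. The 10 stromal markers summed to 3581 and 9008 on day 1, 1878 and 2895 in WT on day 4, and 492 and 917 in heterozygotes, where 8 of the 10 read lower than in WT on day 4 without overlap (28% of all probe sets did). The 6 smooth muscle markers summed to 893 and 891, 392 and 309, and 190 and 172 in the same order of groups. The 6 macrophage markers summed to 22583 and 21068, 16351 and 16979, and 13741 and 14320, mostly Cd14 and on day 1 also Cd68. They did not move alike with day in WT, where their median log2 difference was 0.51. Cd68 fell from 6401 and 5746 to 224 and 157, while Lyz2 rose from 177 and 236 to 1223 and 980. Endothelial, neutrophil, lymphocyte and erythrocyte markers summed to at most 591 on any array, each list highest on array 277. Of the defining markers, stromal Pdgfra, smooth muscle Myh11 and Cnn1, endothelial Tie1, neutrophil Cxcr2 and lymphocyte Cd79a and Nkg7 read under 50 on every array at that probe set. Other probe sets of a gene can differ from the sums. Over all probe sets, 2 stromal genes (Pdgfra and Dcn) were called higher with day in WT and 0 lower in limma's default fit, described below. With an intensity trend 1 was higher and 4 were lower. The part of these other cells in the values that follow was not tested, and in bulk RNA fewer cells of a type and less RNA per cell cannot be told apart.

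Between day 1 and day 4 in WT, Hbegf fell and Ereg rose, and limma's default fit called the receptor Egfr higher at 1 of its 7 probe sets. In limma's default fit, with p-values adjusted by Benjamini-Hochberg over the whole array and a threshold of 0.05, 2 of the 21 probe sets were called higher and 2 lower, beside 5.04% and 4.15% of all probe sets (1761 and 1449; with arrays centred on their medians, 941 and 1256). With an intensity trend, where limma's prior spread is allowed to depend on the mean signal, 4 of the 21 were called higher and 4 lower, beside 11.1% and 9.64% of all. Signals of WT day 4 lay above those of day 1 without overlap at 7 probe sets and below them at 8, beside 32.4% and 22.1% of all. The default fit called nothing on the whole array when day 1 array 302 or 303, or heterozygous array 253 or 281, was left out, while with an intensity trend 5 to 9 of the 21 passed without any 1 array. Between the heterozygotes and WT on day 4, 0 of the 21 were called in limma's default fit, as were 0% of all probe sets. At an unadjusted p under 0.05 the same fit had 2 of the 21 higher, both of Hbegf, and 2 lower, of Ereg and Egfr, against 4.26% and 7.71% of all probe sets. That background split of 1490 higher and 2696 lower was 2263 and 2148 with quantile normalization, 1629 and 1955 with arrays centred on their medians, and 2640 and 1812 without array 277. With an intensity trend both Hbegf probe sets passed as higher in heterozygotes and none of the 21 as lower, beside 1.34% and 1.03% of all probe sets. Heterozygous signals lay above WT without overlap at 2 probe sets and below at 9, beside 18.4% and 28% of all. Between heterozygotes on day 4 and WT on day 1, which differ in both genotype and day, both Hbegf probe sets were called lower and none of the 21 higher, beside 2.89% and 3.18% of all probe sets. With an intensity trend 2 were higher and 6 lower (9.21% and 7.92% of all), and 4 were higher and 12 lower without overlap (30.1% and 30.2% of all). The median log2 difference of the 21 was 0.12 with day, -0.51 between genotypes and -0.56 in heterozygotes against day 1, beside 0.24, -0.18 and -0.01 over all probe sets. The comparisons share arrays, so their values are given side by side and are not independent.

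**Figure D1:**
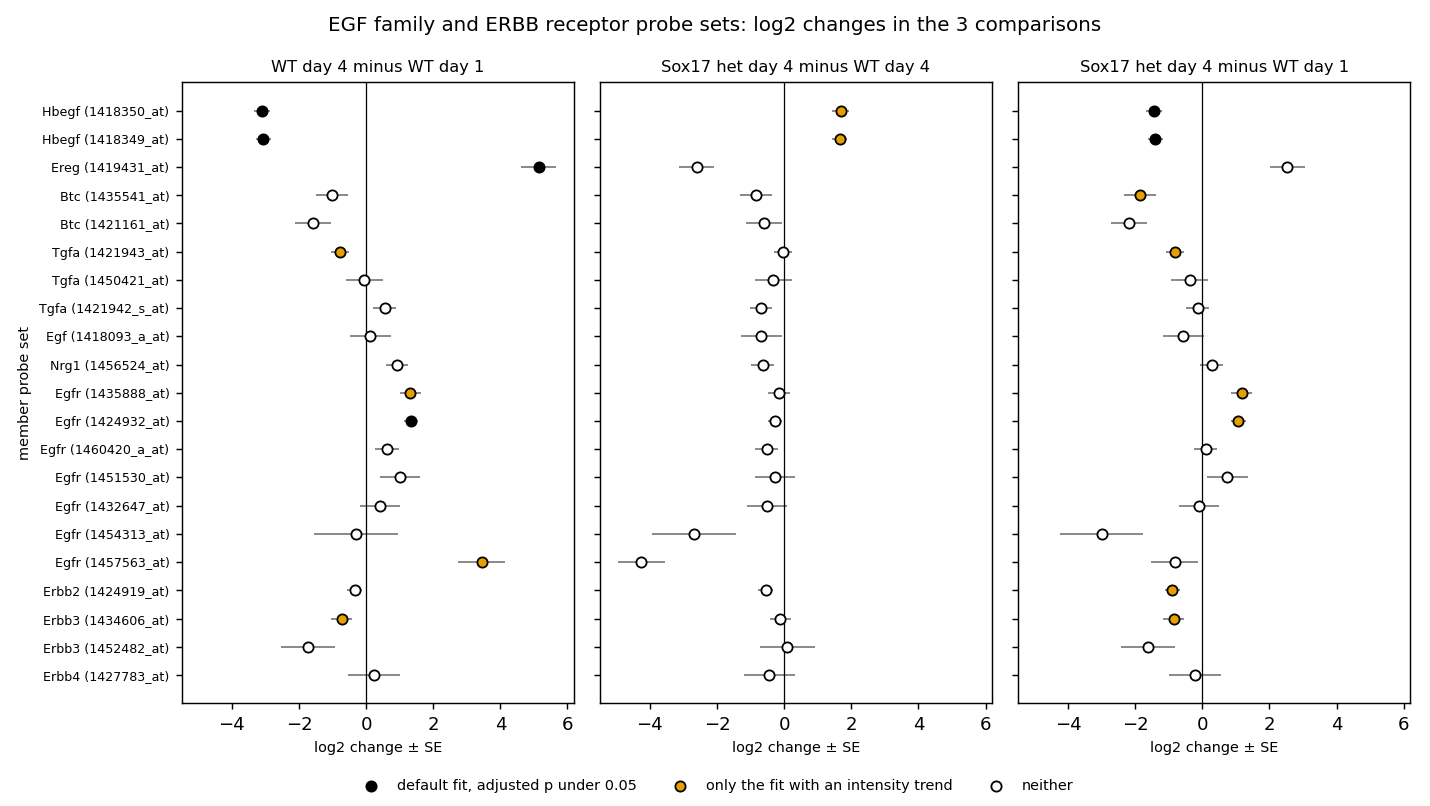
Log2 change with its standard error (horizontal axis) of each of the 21 probe sets (rows) in the 3 comparisons, n = 2 arrays per group, with black points called in limma's default fit, orange points called only with an intensity trend, and open points called by neither. Hbegf lies at -3.11 and -3.06 with day, at 1.68 and 1.66 in heterozygotes against WT on day 4, and at -1.43 and -1.40 in heterozygotes against day 1.

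Hbegf encodes heparin-binding EGF-like growth factor, a ligand of EGFR and ERBB4. Its probe set 1418350_at read 13174 and 10953 in WT on day 1, 1388 and 1396 in WT on day 4, and 4872 and 4069 in heterozygotes on day 4. Probe set 1418349_at read 8992 and 8420, then 1087 and 998, then 3459 and 3128. The 3 groups did not overlap at either probe set, with day 1 highest, WT on day 4 lowest and the heterozygotes between them.

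With day, Hbegf fell by 3.11 ± 0.24 on the log2 scale at the first probe set, an 8.62-fold difference, and by 3.06 ± 0.22 at the second, an 8.35-fold difference (limma SE, n = 2 arrays per group, adjusted p = 0.0112 and 0.0103). In the default fit these calls were lost without array 302, 303, 253 or 281, as was every call on the whole array, with sizes from -3.24 to -2.98. With an intensity trend and all 6 arrays the fall with day passed at both probe sets (limma adjusted p = 2.57e-07 and 1.65e-07). In heterozygotes Hbegf read 3.2-fold and 3.16-fold above WT on day 4 (log2 difference 1.68 ± 0.24 and 1.66 ± 0.22, limma adjusted p = 0.204 and 0.198), so it did not pass in the default fit. With an intensity trend it passed (limma adjusted p = 0.000782 and 0.000477), and both probe sets also passed in that fit when any 1 of the 6 arrays was left out; with an intensity trend and each array centred on its median only 1418349_at did. Among the probe sets with a mean signal of at least 100 alone, limma's default fit also called both (adjusted p = 0.0358 and 0.0308). Against day 1 the heterozygotes were lower by 2.7-fold and 2.64-fold (-1.43 ± 0.24 and -1.40 ± 0.22, limma adjusted p = 0.0478 and 0.0413), a call that both probe sets lost after centring on the median (limma adjusted p = 0.172 and 0.156) or without array 302, 303, 253 or 281 (from 0.185 to 0.277). The part of the other cell types in the Hbegf values was not tested.

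The genes whose pattern over the 6 arrays lay closest to that of Hbegf, by the root mean square difference of centred log2 values, were Gng12 (0.117, Pearson r = 0.996), Acot11 (0.136, r = 0.995) and Gmds (0.146, r = 0.993). Gng12, a G protein gamma subunit, read 13488 and 12075 on day 1, 1652 and 1420 in WT on day 4 and 6003 and 4057 in heterozygotes. With 6 arrays such closeness is a description only.

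Ereg encodes epiregulin, a ligand of EGFR and ERBB4. Its only probe set, 1419431_at, read 3.75 and 0.997 in WT on day 1, 101 and 115 in WT on day 4, and 21.5 and 13.1 in heterozygotes. The groups did not overlap: Ereg was at the bottom of the scale on day 1, well above it on both WT day 4 arrays, and low again, under 50, in both heterozygotes. It rose with day by 5.14 ± 0.52 on the log2 scale (limma, n = 2 arrays per group, adjusted p = 0.0144, and 0.0038 with an intensity trend). In the default fit this call was lost without array 302, 303, 253 or 281, as was every call on the whole array. The size of the rise depends on the pseudocount of 1, since with a pseudocount of 32 it was 2.03 (limma adjusted p = 0.00281). Heterozygotes were 2.61 ± 0.52 below WT on day 4 (limma adjusted p = 0.255, and 0.244 with an intensity trend, and a difference of -1.51 with a pseudocount of 32) and 2.53 ± 0.52 above day 1 (limma adjusted p = 0.0704), neither of which passed. Both WT day 4 arrays read alike for Ereg, although array 277 stands apart in the dim range.

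Btc encodes betacellulin, a ligand of EGFR and ERBB4. Probe set 1435541_at read 432 and 296 on day 1, 261 and 119 in WT on day 4 and 108 and 89 in heterozygotes. Probe set 1421161_at read 152 and 96.1, then 58 and 27.2, then 34.7 and 19. Day 1 was highest at both. WT on day 4 lay between day 1 and the heterozygotes at 1435541_at, but overlapped the heterozygotes at 1421161_at, where array 284 read 27.2 and heterozygous array 253 read 34.7. The difference with day was -1.02 ± 0.47 and -1.58 ± 0.54 (limma adjusted p = 0.263 and 0.159), and that of heterozygotes from WT on day 4 was -0.84 ± 0.47 and -0.61 ± 0.54 (limma adjusted p = 0.521 and 0.653). Heterozygotes lay 3.61-fold and 4.57-fold below day 1 (-1.85 ± 0.47 and -2.19 ± 0.54, limma adjusted p of the first 0.107), which passed for 1435541_at with an intensity trend (limma adjusted p = 0.0129). The closest patterns to that of Btc were those of Ehd2 (0.166, r = 0.980), Egr2 (0.186, r = 0.987) and Abca7 (0.191, r = 0.975).

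In the RefSeq order of protein-coding genes (GRCm38.p6, used here for neighbours only), Epgn, Ereg, Areg and Btc stand next to each other on chromosome 5 with 0 other protein-coding genes between them. Areg, the amphiregulin gene, was not analysed here. Epgn, which encodes epigen, read between 13.8 and 32.5 on all 6 arrays. Ereg thus rose with day beside Btc, which read lower on both WT day 4 arrays than on either day 1 array, and beside Epgn, whose signals stayed under 50.

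Tgfa encodes transforming growth factor alpha, an EGFR ligand, and its 3 probe sets did not move alike. Probe set 1421943_at read 1067 and 821 on day 1, 580 and 512 in WT on day 4 and 566 and 504 in heterozygotes. Both day 4 groups lay below day 1 and overlapped each other. The difference with day was -0.78 ± 0.26 (limma adjusted p = 0.147, and 0.0222 with an intensity trend), and that between genotypes -0.03 ± 0.26 (limma adjusted p = 0.966). Probe set 1421942_s_at, whose suffix marks probes shared by several transcripts, read 156 and 108 on day 1, 233 and 159 in WT on day 4 and 132 and 107 in heterozygotes. Its difference with day pointed the other way but was not called (0.56 ± 0.34, limma adjusted p = 0.373, and 0.439 with an intensity trend). The nearest arrays of the 2 groups read 159 and 156. The third, 1450421_at, read 228 and 191, then 344 and 119, then 158 and 166, with the 2 WT day 4 arrays on either side of all the others.

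Egf, the founding ligand of the family, read between 40.7 and 138 at its only probe set, highest on array 277 and 43.2 on the other WT day 4 array. Nrg1, the neuregulin that binds ERBB3 and ERBB4, read between 13.2 and 32.4 on all arrays, under 50 throughout. Neither was called in any comparison in the default fit or with an intensity trend.

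**Figure D2:**
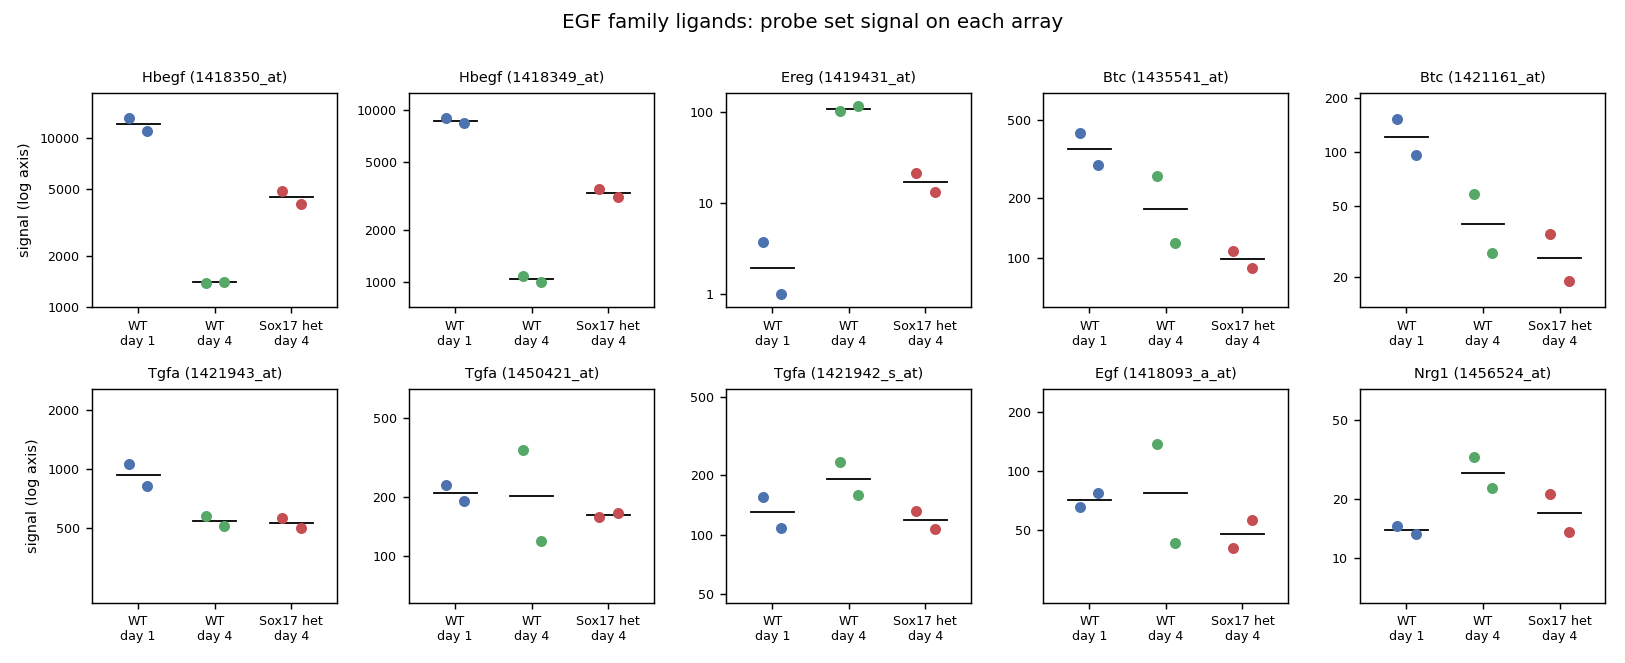
Signal of the 10 ligand probe sets on each of the 6 arrays (vertical log axis), with 1 point per array and a bar at the geometric mean of each group of 2 arrays. Both Hbegf probe sets show 3 separate groups with WT day 4 lowest, between 998 and 1396, and Ereg shows WT day 4 highest, at 101 and 115.

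Egfr encodes the EGF receptor and was measured by 7 probe sets. At 1424932_at it read 517 and 458 on day 1, 1185 and 1286 in WT on day 4 and 1020 and 1025 in heterozygotes. At 1435888_at it read 1215 and 945, then 2144 and 3351, then 2452 and 2364. Both day 4 genotypes lay above day 1 without overlap at both probe sets, near each other. Egfr rose with day by 1.34 ± 0.22 on the log2 scale at 1424932_at (2.53-fold, limma, n = 2 arrays per group, adjusted p = 0.0361), and the size at 1435888_at was 1.32 ± 0.32 (limma adjusted p = 0.0817, and 0.00109 with an intensity trend). In the default fit, leaving out any 1 array ended the call at 1424932_at (limma adjusted p from 0.0606 to 0.180), as did centring each array on its median (1.13, limma adjusted p = 0.226). With an intensity trend it passed (limma adjusted p = 0.000239), also without any 1 of the 6 arrays. The difference between genotypes on day 4 was -0.27 ± 0.22 and -0.15 ± 0.32 (limma adjusted p = 0.625 and 0.852), and after centring on the median 0.00 and 0.12. Heterozygotes stood 1.07 ± 0.22 and 1.17 ± 0.32 above day 1 (limma adjusted p = 0.0701 and 0.125, and 0.00144 and 0.00296 with an intensity trend).

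The other Egfr probe sets read dimmer and did not show this pattern evenly. Probe set 1460420_a_at read 414 and 448 on day 1, 877 and 501 in WT on day 4 and 434 and 490 in heterozygotes. At 1451530_at Egfr read 150 and 72.3, then 333 and 134, then 161 and 192, and at 1432647_at 110 and 86.8, then 225 and 75.1, then 104 and 80. Array 277 was the highest at both, and neither was called in the default fit or with an intensity trend. At 1454313_at it read 54.5 and 58.8 on day 1, 166 and 11.9 in WT on day 4 and 6.34 and 6.02 in heterozygotes, so the heterozygotes lay below day 1 without overlap, opposite to the 2 brightest Egfr probe sets (log2 difference -3.0 ± 1.25, limma adjusted p = 0.259). Against day 1 this probe set was called lower in the heterozygotes in limma's default fit of the 4 arrays compared alone (limma adjusted p = 0.0257). Leaving out WT day 4 array 277 or 284 gives that same fit for this comparison, since 1 remaining array adds no spread. With day, the WT difference at it was -2.16 without array 277 and 1.54 without array 284, so the direction rests on 1 array. Probe set 1457563_at read 4.51 and 3.79 on day 1, 89.4 and 33.2 in WT on day 4 and 3.76 and 0.791 in heterozygotes. Array 277 alone read above 50 there, and the 2 WT day 4 arrays were the highest (heterozygotes minus WT day 4: -4.25 ± 0.70, limma adjusted p = 0.219, and 0.078 with an intensity trend). Its difference with day was 3.44 ± 0.70 (limma adjusted p = 0.0557, and 0.0478 with an intensity trend). Where within the Egfr transcripts these probe sets lie was not analysed here. The closest patterns to that of 1435888_at were those of Ebag9 (0.065, r = 0.995), Zfp606 (0.092, r = 0.989) and Zfp322a (0.104, r = 0.988).

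Erbb2 encodes the receptor without a ligand of its own. Its probe set 1424919_at read 1237 and 1351 on day 1, 1056 and 991 in WT on day 4 and 715 and 682 in heterozygotes. The 3 groups did not overlap, with the heterozygotes lowest. The difference with day was -0.34 ± 0.22 (limma adjusted p = 0.392), that of heterozygotes from WT on day 4 was -0.55 ± 0.22 (1.46-fold lower, limma adjusted p = 0.425, and 0.141 with an intensity trend), and that of heterozygotes from day 1 was -0.89 ± 0.22 (1.85-fold lower, limma adjusted p = 0.0969, and 0.00369 with an intensity trend). Between genotypes the stromal sum also read lower, at 492 and 917 against 1878 and 2895, and its part in the Erbb2, Btc and Ereg values was not tested.

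Erbb3, a receptor of neuregulins, read 6969 and 6340 on day 1, 3190 and 5080 in WT on day 4 and 3684 and 3709 in heterozygotes at 1434606_at. Day 1 lay above both day 4 groups, which overlapped. The difference with day was -0.72 ± 0.31 (limma adjusted p = 0.229, and 0.028 with an intensity trend), and heterozygotes were at -0.85 ± 0.31 against day 1 (limma adjusted p = 0.208, and 0.0145 with an intensity trend). Its other probe set, 1452482_at, read 91 and 55 on day 1 and between 10.4 and 46.8 on day 4. Erbb4 read at most 9.58 on any array, so its probe set gave no level to compare.

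**Figure D3:**
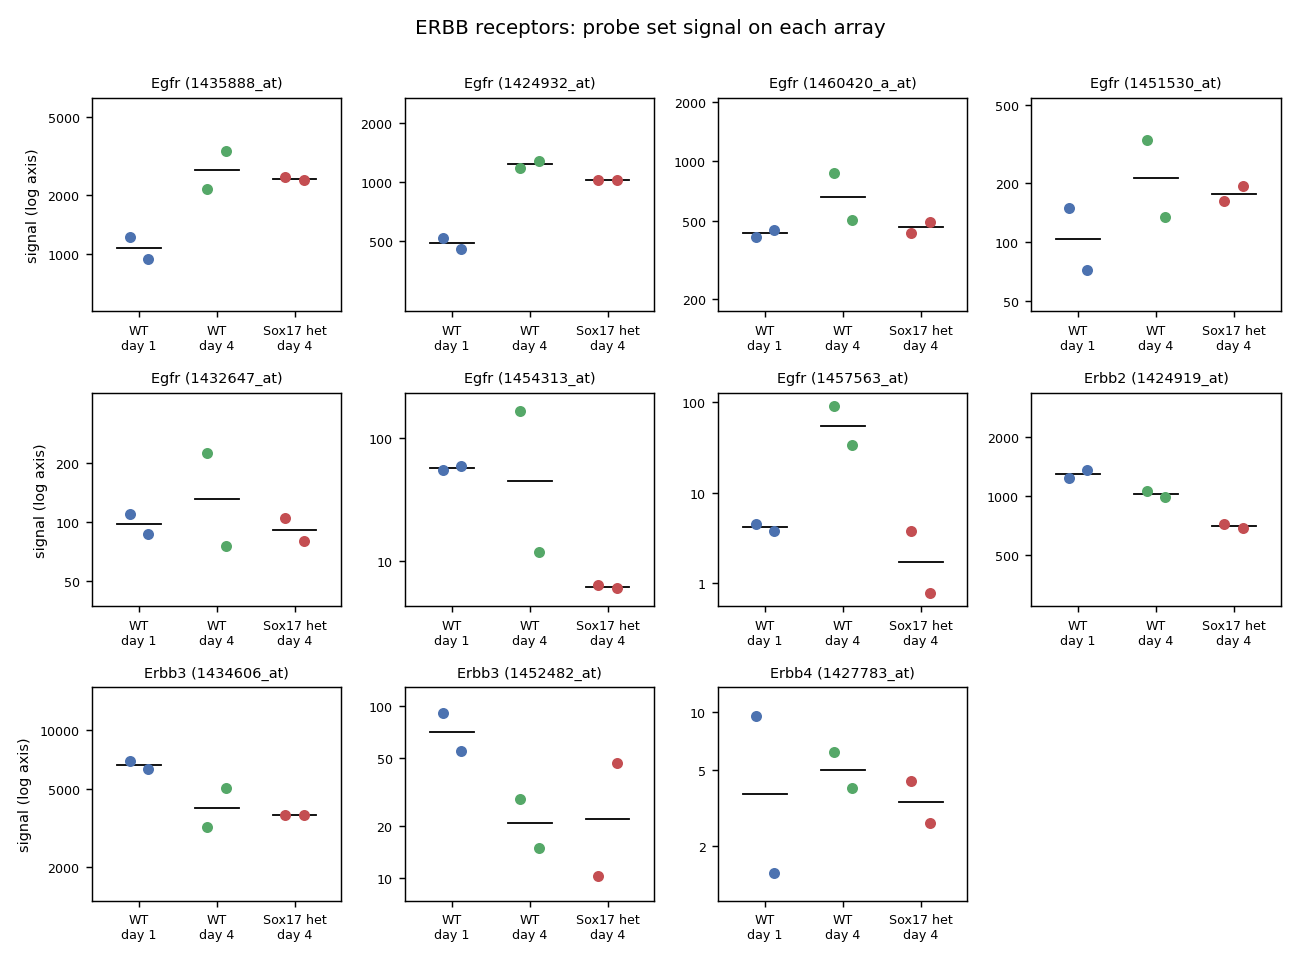
Signal of the 11 receptor probe sets on each of the 6 arrays (vertical log axis), with 1 point per array and a bar at the geometric mean of each group of 2 arrays. Egfr at 1424932_at is above 1000 on all 4 day 4 arrays against 517 and 458 on day 1, and Erbb2 steps down from 1351 to 682.

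Promoter sequence in RefSeq (GRCm38.p6) was examined for 6 of the 10 genes (Btc, Egf, Egfr, Erbb2, Erbb4 and Tgfa), in 7 windows of the 250 bases before a transcription start. Hbegf, Ereg, Erbb3 and Nrg1 were not examined, so the counts below do not cover them. Egfr and Btc are shown as the members with signals above 50 whose window holds the motif marked. Capitals mark GGTCA, the half-site to which the estrogen receptor can bind, on either strand (TGACC on the other), and no match overlapped another motif searched. Egfr has 2 matches, their first bases 192 and 115 before the start, and Btc has 1, at 187. The windows are Egfr at chr11:16751953-16752202 on the plus strand and Btc at chr5:91402995-91403244 on the minus strand, each printed 5′ to 3′.
Egfr: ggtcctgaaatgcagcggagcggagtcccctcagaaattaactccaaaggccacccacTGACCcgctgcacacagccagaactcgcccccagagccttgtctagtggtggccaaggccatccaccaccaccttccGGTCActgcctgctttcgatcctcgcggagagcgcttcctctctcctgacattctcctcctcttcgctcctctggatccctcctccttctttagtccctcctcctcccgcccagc
Btc: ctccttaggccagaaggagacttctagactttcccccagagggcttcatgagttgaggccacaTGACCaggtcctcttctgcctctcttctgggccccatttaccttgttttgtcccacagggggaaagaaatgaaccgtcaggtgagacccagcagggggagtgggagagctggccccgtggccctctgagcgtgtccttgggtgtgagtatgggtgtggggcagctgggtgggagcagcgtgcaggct
Of these 6 genes 3 had the half-site, which 35.2% of all 32851 windows of this length hold. The SOX core ACAAT was present in 1 of the 6, Erbb4, and in 27.7% of all windows. The spaced half-sites of the progesterone receptor element (ACANNNTGT) and the AP-1 site (TGANTCA) were in none of the 6, with 5.84% and 6.75% of all windows. The SP1 box (GGGCGG) was in Egfr and Tgfa, and in 32.7% of all windows. These letters are a description of the windows and show no binding.

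Around ligands and receptors, the other genes of the pathway were counted by whether at least 1 probe set was called in limma's default fit; over all genes 7.22% were called higher and 5.96% lower with day, 0% in either direction between genotypes, and 4.55% and 4.34% in heterozygotes against day 1. With an intensity trend the shares were 15.5% and 12.6%, 2.15% and 1.63%, and 12.5% and 10.7%. Between genotypes 0 genes of these lists were called in the default fit. As for the ligands, no day call of the default fit was kept without array 302, 303, 253 or 281.

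Among 4 other ligands measured, Nrg4, a neuregulin that binds ERBB4, rose with day and 3 were not called. Nrg4 read 74.3 and 45.6 on day 1, 1220 and 808 in WT on day 4 and 1421 and 1327 in heterozygotes. Both day 4 genotypes lay far above day 1, with heterozygotes slightly above WT (with day 4.07 ± 0.37, limma adjusted p = 0.0126; between genotypes 0.47 ± 0.37, limma adjusted p = 0.618). Its other probe set pointed the same way with day (4.35, limma adjusted p = 0.0913).

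Of 8 genes of ligand shedding, 2 were called higher with day and 3 lower, and 1 was lower between genotypes with an intensity trend. Adam10 and Adam9, membrane proteases that cleave EGF family ligands, fell by 2.09 ± 0.33 and 1.71 ± 0.28 on the log2 scale, and Rhbdf1, an inactive rhomboid that helps the sheddase ADAM17 mature, fell by 2.03 ± 0.27 (limma adjusted p = 0.0334, 0.0365 and 0.0236). Adam10 read 1214 and 801 on day 1, 207 and 257 in WT on day 4 and 440 and 340 in heterozygotes at 1450104_at. It was also called lower with day at 1450105_at (-1.81 ± 0.30, limma adjusted p = 0.0379). At its brightest probe set, 1428103_at, it was not called (-1.46 ± 0.28, limma adjusted p = 0.0516). Adam9 read 8723 and 6292, then 2029 and 2524, then 3960 and 3799. For Adam10 at 1450104_at and for Adam9 the heterozygotes lay between the WT groups without overlap, at 0.74 ± 0.33 and 0.78 ± 0.28 above WT on day 4 (limma adjusted p = 0.458 and 0.406). They also lay between them for Adam10 at 1428103_at and 1450105_at. At the dimmest Adam10 probe set, 1460083_at, heterozygotes read 3.23 and 6.14 against 31.7 and 4.95 in WT on day 4, and did not. Adam17 was not called at any of its 3 probe sets and read 1978 and 1804, then 1455 and 1729, then 1614 and 1696 at 1421858_at. Timp3, an inhibitor of metalloproteases including ADAM17, rose with day by 6.03 ± 0.23 (limma adjusted p = 0.00677), from 33.7 and 41.6 to 2593 and 2434. Heterozygotes read 351 and 359 for Timp3, between the WT groups (-2.82 ± 0.23 against WT on day 4, limma adjusted p = 0.192, and 0.000506 with an intensity trend), and its 3 other probe sets pointed the same way in both comparisons. The stromal sum also read lower in heterozygotes than in WT on day 4, and its part in the Timp3 values was not tested. The second gene called higher was Adam19, whose called probe set read at most 10.9 on any array.

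Of 3 surface proteins that bind Hbegf or present it, Cd44 was called higher with day at a dim probe set (1.17 and 4.41 on day 1, 62.9 and 41.3 in WT on day 4, 12.5 and 16.6 in heterozygotes). Its change was 3.92 ± 0.54 (limma adjusted p = 0.0258). The brighter Cd44 probe sets 1434376_at and 1423760_at pointed the same way but were not called (1.18 ± 0.56 and 0.86 ± 1.06, limma adjusted p = 0.271 and 0.655). Its dimmest, which read at most 14.8 on any array, pointed the other way (-0.88 ± 0.93). Cd9, a tetraspanin that binds the Hbegf precursor, read between 19298 and 31007 on all arrays and was not called.

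Among 18 inhibitors and feedback regulators, 0 were called higher with day and 4 lower in the default fit. With an intensity trend 2 were higher and 7 lower with day, and 4 higher and 5 lower in heterozygotes against day 1, Spred1 among both. Between genotypes 1 (Spred1) was lower with an intensity trend, at 1443652_x_at, while its 3 brightest probe sets read higher or overlapped. Lrig1, a membrane protein that promotes loss of ERBB receptors, fell by 2.88 ± 0.32 at 1434210_s_at (limma adjusted p = 0.017), from 3443 and 5347 to 522 and 647, and read 990 and 905 in heterozygotes; its dimmest probe set pointed up with day (0.93 ± 0.55). The phosphatases of MAP kinases Dusp4 and Dusp6 fell by 2.55 ± 0.29 and 1.51 ± 0.25, and Ptpn12 fell by 1.38 ± 0.23 (limma adjusted p = 0.0185, 0.0368 and 0.0371). Dusp6 read 7740 and 8957 on day 1, 2808 and 3061 in WT on day 4 and 4065 and 5098 in heterozygotes, between the WT groups (0.63 ± 0.25 against WT on day 4, limma adjusted p = 0.425). Errfi1, which inhibits the EGFR kinase, was not called (-0.41 ± 0.28 with day, limma adjusted p = 0.427). The median of the list with day was -0.36, against 0.30 for all genes.

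Of 15 adaptor and kinase genes measured, 0 were called in any comparison in the default fit, and with an intensity trend 4 were higher and 5 lower with day and 0 between genotypes. Of 10 genes used as targets of the pathway, 1 rose and 3 fell with day, and with an intensity trend 3 were higher between genotypes and 0 lower. Phlda1, Elk3 and Ier3 fell by 4.38 ± 0.40, 3.37 ± 0.24 and 2.27 ± 0.28, and Etv5, a transcription factor, rose by 4.15 ± 0.30 (limma adjusted p = 0.0126, 0.0102, 0.0217 and 0.0105). Ier3, an early response gene, read 36826 and 38673 on day 1, 6463 and 9534 in WT on day 4 and 17140 and 15780 in heterozygotes. Etv5 read 24.5 and 24.7, then 378 and 543, then 129 and 170. In both the heterozygotes lay between the WT groups (against WT on day 4, 1.07 ± 0.28 and -1.61 ± 0.30, limma adjusted p = 0.321 and 0.246, and 0.0217 and 0.119 with an intensity trend).

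**Figure D4:**
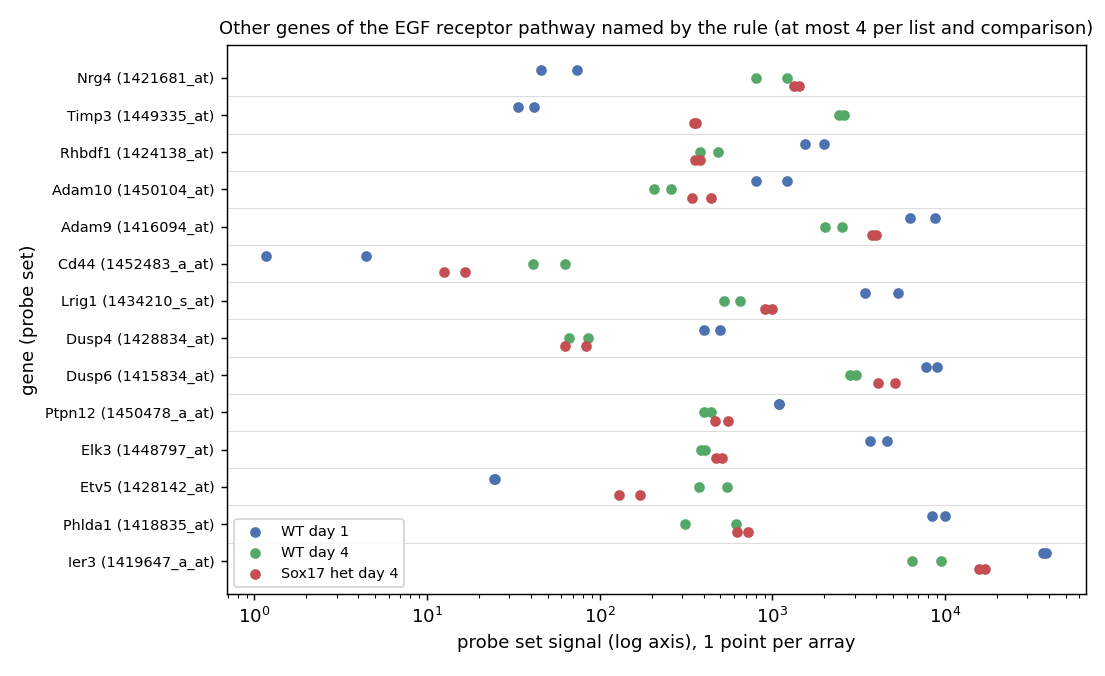
Signal on each array (horizontal log axis) of the pathway genes named by the rule, 1 row per gene, with blue points for WT day 1, green for WT day 4 and red for Sox17 heterozygous day 4. Timp3, Nrg4, Etv5 and Cd44 lie to the right on day 4, the other 10 genes to the left, and for Timp3 the heterozygotes at 351 and 359 lie between the WT groups.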

How the data were processed

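The values the authors deposited are a linear intensity per probe set, with the same trimmed mean on all arrays but unequal quantiles, which differs from RMA output. RMA, Expression Console and Transcriptome Analysis Console are named in the submitters' processing notes, and how the signals were summarised is not given in the labels or file headers. Probe sets with 1 gene symbol in the platform annotation were used (34945 of 45101). Signals were taken as log2(signal + 1) with no other scaling or filter. On this scale the size of a change at a dim probe set depends on the pseudocount, as given above for Ereg.

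One limma model (version 3.58.1, R 4.3.3) held all 6 arrays and a term for each group, with 3 residual degrees of freedom. Moderated p-values came from eBayes and were adjusted by Benjamini-Hochberg across the array, and ± gives the model's standard error. For 2 arrays against 2, exact permutation reaches no p under 0.333. The fit was tested on simulated data. The members and lists were chosen with earlier results of these data known. Named genes are the members, up to 4 called genes of smallest p per pathway list and comparison, and the 3 closest patterns for each member whose mean signal is at least 200 and whose group means span at least 1 log2 unit, and Adam17, Adam19, Cd9, Errfi1, Epgn, Spred1, Myc and Ccnd1 were picked after their values were seen. Alternatives were other scalings, pseudocounts, filters, priors, array weights, per-gene summaries, thresholds, and leaving out arrays; the intensity trend together with centring or a left-out array was added after seeing the data.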

Additional observations from a re-analysis of the deposited data

How the results depend on the processing

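No paired analysis was possible because no sample number occurs in more than 1 group. With 2 arrays per group and no detection calls, signals under 50 are best read as low. For WT day 4 against day 1, where 4 probe sets of the EGF family were called, 8 were called with an intensity trend, 0 from the 4 arrays compared alone, 2 with the brightest probe set per gene, 2 with a mean per gene, 7 at an unadjusted p under 0.05 and at least 2-fold, and 0 to 9 without any 1 array over the default and intensity trend fits. For heterozygotes against WT on day 4, where 0 were called (4 at an unadjusted p under 0.05 in limma's default fit), 2 were called at a mean signal of at least 100, 2 with an intensity trend, 1 with an intensity trend and centring, 4 at an unadjusted p under 0.05 and at least 2-fold, and 0 to 5 without any 1 array, the 5 without array 284. For heterozygotes against day 1, where 2 were called, 0 were called after centring each array on its median, 7 at a mean signal of at least 100, 6 with a pseudocount of 32, 8 with an intensity trend, 1 with a robust prior, 8 with array weights, 1 with the brightest probe set per gene, 1 with the mean per gene, 5 at an adjusted p under 0.10, 7 at an unadjusted p under 0.05 and at least 2-fold, and 0 to 10 without any 1 array. The causes were not tested.

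The log2 difference of heterozygotes from WT on day 4 changed sign after centring on the median for Tgfa at 1421943_at (0.25), Egfr at 1424932_at (0.00) and 1435888_at (0.12) and Erbb3 at 1434606_at (0.15), and with quantile normalization for Btc at 1421161_at (0.01) and Nrg1 (0.00). Centring adds the same constant to the difference of every probe set, so the sign changes after it are not particular to these genes. With the mean of all Egfr probe sets, Egfr in heterozygotes against day 1 was at -0.12 where 1424932_at, 1435888_at and 1460420_a_at had positive values. Leaving out 1 array gave, between genotypes on day 4, from -0.12 to 0.06 for Tgfa at 1421943_at, -1.08 to 0.44 at 1450421_at, -0.48 to 0.17 for Egfr at 1435888_at and -0.46 to 0.21 for Erbb3 at 1434606_at. It gave from -0.81 to 0.72 for Tgfa at 1450421_at and from -2.16 to 1.54 for Egfr at 1454313_at with day, the latter also turning positive with a pseudocount of 32 (0.07) and with the mean of all Egfr probe sets (1.12), and from -0.02 to 0.59 for Nrg1 in heterozygotes against day 1. With all arrays and the main settings none of these differences was called. Over 15 of the 21 probe sets, 585 values kept direction and side of the threshold, 39 lost a call, 40 gained one and 20 changed sign. Many of the 585 could not have changed direction. An intensity trend, a robust prior, array weights, the 4 arrays alone or the brightest probe set leave a log2 difference as it is. So does leaving out an array outside the comparison. A value never called also counts as kept, so the tally does not measure how robust the differences are. These 15 had a mean signal of at least 200, an unadjusted p under 0.05 in limma's default fit, or a call in a setting without an intensity trend. Settings that join an intensity trend with centring or a left-out array were not counted.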

Other observations

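Of the genes used as targets of the pathway, Myc and, at its brightest probe set, Ccnd1 read higher in heterozygotes than in either WT group. Both are given here after their values were seen. Myc, a transcription factor of cell growth, read 418 and 563 in WT on day 1, 213 and 107 in WT on day 4 and 1192 and 979 in heterozygotes on day 4. The heterozygotes were 2.83 ± 0.42 above WT on day 4 on the log2 scale (limma adjusted p = 0.204, and 0.0017 with an intensity trend). Ccnd1, which encodes cyclin D1, read 465 and 339, then 613 and 440, then 1701 and 1206 at 1417420_at (1.46 ± 0.34 against WT on day 4, limma adjusted p = 0.29, and 0.015 with an intensity trend). Its 2 other probe sets pointed the same way against WT on day 4 and passed in neither fit there. At 1448698_at the heterozygotes, at 1158 and 722, overlapped WT on day 4, at 854 and 416. Against day 1, 1448698_at and 1417419_at passed with an intensity trend (limma adjusted p = 0.0053 and 0.0084).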
